A study of Homo sapiens with 12 samples.

Results

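The large subunit of the cytosolic ribosome is built from ribosomal RNA and a set of proteins encoded by the RPL genes, and their messenger RNAs (mRNAs) were examined here in RNA carried through a Halo-tag purification. Members were the genes in the deposited normalized count table whose symbol has the form RPL followed by a number, or RPLP followed by a number, with at most a short suffix (A, X or L, with or without a digit), and which reached a normalized count of 10 in at least 3 of the 12 libraries. Of 52 symbols of that form, 49 passed and are the members described here, among 14627 genes tested and 25369 genes in the table. The samples were HEK293T cells, a human embryonic kidney line much used for transfection, which the growth description gives as HEK293. One construct joined the Halo tag, an enzyme tag that binds covalently to a resin, with a fragment of TNIP2 (residues 196 to 346). TNIP2 is a ubiquitin-binding adaptor known to dampen NF-kB signalling. The other was the Halo tag by itself. The 4 groups, with 3 libraries each, were TNIP2 Pulldown (RNA from 90 µl of material purified through the tagged fragment), TNIP2 Input (RNA from 100 µl of extract of the same transfected cells), Control Pulldown (90 µl purified through the tag alone) and Control Input (100 µl of extract of cells with the tag alone). Both constructs were expressed from transfected plasmids beside the cells' own TNIP2, and ribosomal RNA was depleted from all libraries.

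Ribosomal protein mRNAs are among the most abundant and most coordinately regulated in growing cells. Most of them begin at the cap with a 5′ terminal oligopyrimidine (TOP) tract, a run of C and T through which mTOR signalling and the RNA-binding protein LARP1 control their translation together. Their products enter the nucleus, join pre-ribosomes in the nucleolus and are needed in matching amounts.

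The TOP-type start is shown for the members whose mRNAs moved farthest, because it is the sequence feature that the group is known to share. Each line holds 15 bases before and 15 bases after the annotated transcript start, from RefSeq on build GRCh38.p14 (the deposited tables were made on hg19), read 5′ to 3′ on the gene's strand, with the longest run of C and T in capitals. The first 5 belong to genes with the highest ratios of TNIP2 Pulldown over TNIP2 Input and the last 3 to genes with the lowest.
RPL19 (chr17:39200308-39200337, plus strand): gagcgagCTCTTTCCTTTCgctgctgcggc
RPL31 (chr2:101002274-101002303, plus strand): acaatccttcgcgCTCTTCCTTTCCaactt
RPL35A (chr3:197950175-197950204, plus strand): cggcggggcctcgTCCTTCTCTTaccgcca
RPL10A (chr6:35468386-35468415, plus strand): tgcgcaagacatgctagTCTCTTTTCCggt
RPL13A (chr19:49487593-49487622, plus strand): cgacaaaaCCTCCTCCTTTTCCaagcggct
RPL29 (chr3:51995881-51995910, minus strand): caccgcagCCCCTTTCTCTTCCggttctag
RPLP0 (chr12:120201097-120201126, minus strand): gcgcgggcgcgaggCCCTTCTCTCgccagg
RPL39 (chrX:119791616-119791645, minus strand): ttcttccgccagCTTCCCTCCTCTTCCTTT
Among the starts shown, runs of 10 to 18 pyrimidines stand on both sides of the comparison. RefSeq windows were matched for 40 of the 49 members, with the longest run over the listed starts taken where a gene has several, and 31 of these (77.5%) held a run of 8 or more C or T, against 16.5% of 27305 genes with a window. On the other strand the shares were 5.0% of the matched members and 13.5% of all genes. By outcome in TNIP2 Pulldown against TNIP2 Input, the run was present in 17 of 24 matched members that were higher, 4 of 4 that were lower and 10 of 12 that were not called. A run of these letters in the window is a description and not a mapped cap site.

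TNIP2 Pulldown against TNIP2 Input compares what the TNIP2 fragment carried with the extract it came from. The large subunit mRNAs split: 27 of 49 members were higher in TNIP2 Pulldown and 7 were lower, beside 29.8% of all tested genes higher and 28.3% lower (called at an adjusted p under 0.05 in limma). In either direction 34 of 49 were called (69.4%), beside 58.1% of all genes. The libraries of the 2 groups did not overlap for 27 members higher and 7 lower, beside 29.4% and 28.1% of all genes. The shares of the members were 55.1% higher and 14.3% lower, so the excess over all genes was on the higher side. Of the 49 members, 19 were called higher (38.8%) and 5 lower (10.2%) by at least 2-fold, beside 18.8% and 16.8% of all genes. Fold changes are on the scale of log2(normalized count + 1). The median member had a log2 fold change of 0.63, against 0.01 for all genes, and single members ran between -2.69 and 2.55. The split of higher and lower calls depended on the scaling: with quantile normalization 16 members were higher and 18 lower, and the median was -0.14. Of the 27 higher calls, 9 ended under that scaling and 2, RPL9 and RPL41, turned to lower calls. The calls of the members described next, up to RPL39, held under all 22 alternatives. Among 61 genes at least as abundant as the median member, which include members themselves, the median was 0.47.

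**Figure D1:**
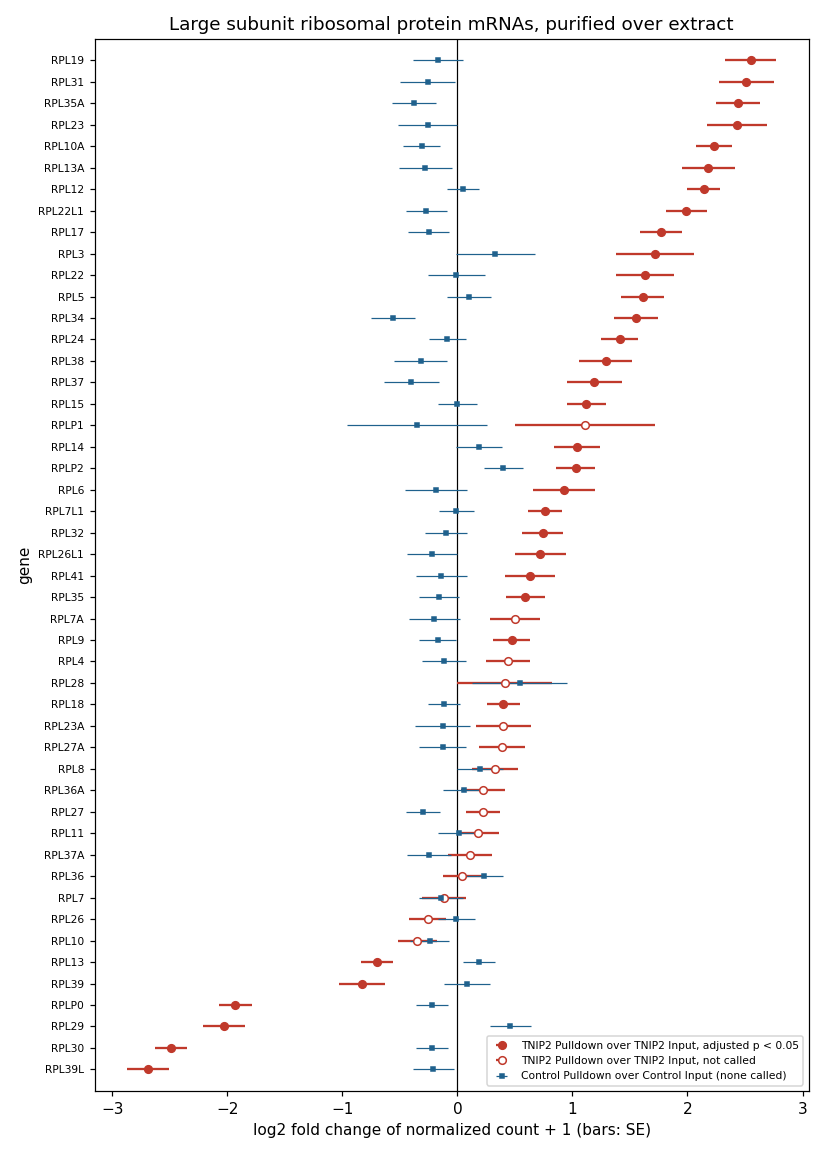
Log2 fold change (x axis, bars are SE, 3 libraries a group) of 48 of the 49 large subunit mRNAs, sorted by TNIP2 Pulldown over TNIP2 Input (red circles, filled where called); blue squares show Control Pulldown over Control Input. The red points run from 2.55 for RPL19 to -2.69 for RPL39L, while the blue points stay between -0.56 and 0.54.

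RPL19, whose protein lies at the rim of the tunnel through which new proteins leave the ribosome and reaches across to the small subunit, had the highest fold change. It had 89699, 138522 and 65864 normalized counts in TNIP2 Pulldown, against 16205, 14798 and 16871 in TNIP2 Input (log2 fold change 2.55, SE 0.22, adjusted p = 2.2e-07). Every purified library was above every extract library, and the lowest TNIP2 Pulldown library was replicate 3. RPL31, another protein of the tunnel rim, had 68898, 90322 and 37953 in TNIP2 Pulldown, against 11542, 10251 and 10814 in TNIP2 Input (2.51, SE 0.24, adjusted p = 6.1e-07). RPL35A, one of the genes mutated in Diamond-Blackfan anaemia, had 43156, 37224 and 25709 in TNIP2 Pulldown, against 6741, 5548 and 6935 in TNIP2 Input (2.44, SE 0.19, adjusted p = 1.1e-07). Replicate 3 was again the lowest purified library for both, and the groups did not overlap.

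RPL23, at the face that meets the small subunit, had 64821, 82904 and 31289 normalized counts in TNIP2 Pulldown, against 11121, 10085 and 9526 in TNIP2 Input (log2 fold change 2.43, SE 0.26). RPL10A, the protein of the mobile L1 stalk that guides the leaving tRNA, had 62449, 58782 and 48493 in TNIP2 Pulldown, against 11525, 10836 and 13841 in TNIP2 Input (2.23, SE 0.16). RPL13A, also known outside the ribosome as a translational silencer in the interferon response, had 21149, 22106 and 11255 in TNIP2 Pulldown, against 4557, 4275 and 2913 in TNIP2 Input (2.18, SE 0.23). Their adjusted p was 1.9e-06 for RPL23, 5.0e-08 for RPL10A and 1.8e-06 for RPL13A, and none of the 3 overlapped between groups.

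The lowest fold change was that of RPL39L, a paralog of RPL39 found in testis and in many cell lines and the least abundant member. It had 41, 46 and 39 normalized counts in TNIP2 Pulldown, against 291, 224 and 320 in TNIP2 Input (log2 fold change -2.69, SE 0.18, adjusted p = 4.5e-08). RPL30, which in yeast binds its own transcript, had 1653, 1667 and 1684 in TNIP2 Pulldown, against 9559, 8517 and 10150 in TNIP2 Input (-2.49, SE 0.14, adjusted p = 9.1e-09). The purified libraries of RPL30 lay within a few percent of one another and far below every extract library. RPL29, a small basic protein also known as a heparin-binding protein, had 3302, 3306 and 2660 in TNIP2 Pulldown, against 15447, 13740 and 9384 in TNIP2 Input (-2.03, SE 0.18, adjusted p = 3.8e-07).

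RPLP0, the scaffold of the P stalk, had 6859, 6099 and 7125 normalized counts in TNIP2 Pulldown, against 25089, 23751 and 27792 in TNIP2 Input (log2 fold change -1.93, SE 0.14, adjusted p = 6.3e-08). RPL39, the small protein that lines the exit tunnel, had 15392, 10768 and 8564 in TNIP2 Pulldown, against 21677, 18460 and 19808 in TNIP2 Input (-0.83, SE 0.20, adjusted p = 0.0022). All purified libraries of both genes were below all extract libraries, with the smaller gap for RPL39. RPL13, also lower, had a log2 fold change of -0.70 (SE 0.14).

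**Figure D2:**
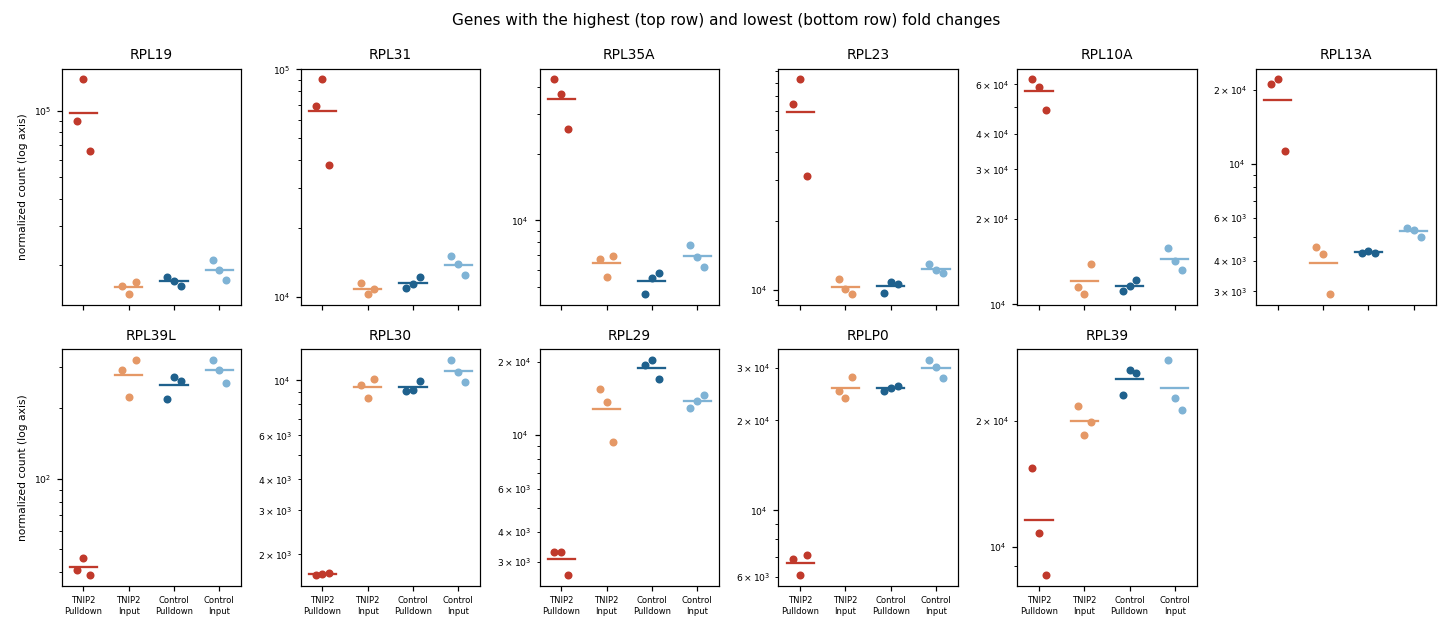
Normalized count (log axis, each panel on its own scale) of the 6 members with the highest and 5 of those with the lowest fold changes in TNIP2 Pulldown against TNIP2 Input; each point is a library and each bar a group mean of 3. In every panel the TNIP2 Pulldown points stand apart from the other 9 libraries, above them in the top row and below them in the bottom row.

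Within a library the opposed movements changed the proportions between subunit mRNAs. The deposited FPKM values are fragments scaled by gene length, with the same scaling between libraries as the normalized counts. In FPKM the ratio of RPL19 to RPL30 was 41.1, 62.9 and 29.6 in TNIP2 Pulldown, against 1.28, 1.32 and 1.26 in TNIP2 Input. It was 1.48, 1.42 and 1.23 in Control Pulldown, against 1.33, 1.34 and 1.31 in Control Input. The pair was taken from the 2 ends of the ranking after its values were seen, so the size is a description. The SD of log2 FPKM over the members was 2.12 to 2.27 in TNIP2 Pulldown, against 1.78 to 1.90 in TNIP2 Input, 1.85 to 1.88 in Control Pulldown and 1.83 to 1.90 in Control Input. All members together made up 8.31%, 9.36% and 6.55% of normalized counts in TNIP2 Pulldown, against 5.91%, 5.63% and 5.12% in TNIP2 Input. They made up 6.12% to 6.40% in Control Pulldown, against 6.18% to 6.38% in Control Input. These values are relative within a library, so in such bulk RNA more copies bound and less of other RNA present cannot be told apart.

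The P stalk is the flexible arm of RPLP0, RPLP1 and RPLP2 that recruits the translation factors, with RPL12 at its base, and its 4 mRNAs did not move together. RPL12 had 71432, 69472 and 60549 normalized counts in TNIP2 Pulldown, against 14671, 13981 and 17166 in TNIP2 Input (log2 fold change 2.14, SE 0.14, adjusted p = 3.9e-08), the opposite direction to RPLP0. RPLP2 had 12591, 14914 and 10282 in TNIP2 Pulldown, against 7079, 6166 and 5229 in TNIP2 Input (1.03, SE 0.17, adjusted p = 1.2e-04). RPLP1 had 7981, 14140 and 7823 in TNIP2 Pulldown, against 6231, 6038 and 2341 in TNIP2 Input, and its log2 fold change of 1.11 (SE 0.61) did not pass (adjusted p = 0.13). For RPL12, RPLP2 and RPLP1 every purified library was above every extract library. RPLP1 was also the most variable member among replicates, with 3560, 5220 and 712 in Control Pulldown, against 1538, 4371 and 4079 in Control Input. The call for RPLP1 was gained with the library number as a block within the TNIP2 libraries (adjusted p = 0.0021) and without Control Pulldown replicate 3 (adjusted p = 0.04). The FPKM ratio of RPL12 to RPLP0 was 19.9, 21.8 and 16.3 in TNIP2 Pulldown, against 1.12, 1.13 and 1.18 in TNIP2 Input, and between 1.08 and 1.43 in the 6 control libraries.

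The 2 proteins that travel with 5S ribosomal RNA and, when free, bind the p53 regulator MDM2 also differed in outcome. RPL5 averaged 72434 ± 21007 normalized counts in TNIP2 Pulldown and 23039 ± 1412 in TNIP2 Input (SD, n = 3 each), so that its log2 fold change was 1.61 (SE 0.19, adjusted p = 6.5e-06). RPL11 averaged 14679 ± 3778 in TNIP2 Pulldown and 12719 ± 1254 in TNIP2 Input, and its log2 fold change of 0.18 (SE 0.18) did not pass the test (adjusted p = 0.43). The difference between RPL5 and RPL11 was not itself tested. RPL11 had a called log2 fold change of 0.41 without TNIP2 Pulldown replicate 3 (adjusted p = 0.014) and one of -0.56 under quantile normalization.

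Of the 3 proteins that line the exit tunnel, RPL17 was higher (log2 fold change 1.77, SE 0.18), RPL39 was lower, and RPL4 did not pass (0.44, SE 0.19, adjusted p = 0.06). Of the 6 at the rim of the exit, where nascent chain factors dock, RPL19, RPL31, RPL22 (1.63, SE 0.25) and RPL35 (0.59, SE 0.17) were higher. RPL23A, a docking site of the signal recognition particle, had 0.40 (SE 0.24, adjusted p = 0.17), and RPL26, known to carry the UFM1 modification, had -0.26 (SE 0.16, adjusted p = 0.18). RPL23A was called without TNIP2 Pulldown replicate 3 (0.78, adjusted p = 1.9e-04), and so was RPL4 (0.67, adjusted p = 8.6e-04). RPL26 was called lower without TNIP2 Pulldown replicate 1 (-0.39, adjusted p = 0.045) and under quantile normalization (-1.0, adjusted p = 7.3e-06). RPL35 lost its call when the TNIP2 libraries alone were fitted (adjusted p = 0.058) and under quantile normalization (-0.14, adjusted p = 0.42).

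At the subunit interface and among proteins that join late, RPL23, RPL24 (1.41, SE 0.16), which forms a bridge to the small subunit, and RPL41 (0.63, SE 0.22), the smallest ribosomal protein, were higher. RPL10, which joins the particle in the cytoplasm and completes the tRNA binding sites, had -0.35 (SE 0.17, adjusted p = 0.092). The call for RPL41 (adjusted p = 0.025) ended under 8 of 22 alternatives, among them quantile normalization, where it was called lower (-0.42, adjusted p = 0.015), leaving out TNIP2 Pulldown replicate 1 (0.079) or 2 (0.13), TNIP2 Input replicate 1 (0.0505) or 2 (0.067), and the block within the TNIP2 libraries (0.06). RPL10 was called lower without TNIP2 Pulldown replicate 1 (-0.52, adjusted p = 0.0099) and under quantile normalization (-1.1, adjusted p = 9.8e-06).

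Paralogs, related genes whose products resemble that of a main gene, gave 4 pairs with both genes measured beside RPL3 and RPL10. RPL22L1 had 5661, 5548 and 3711 normalized counts in TNIP2 Pulldown, against 1317, 1135 and 1252 in TNIP2 Input (log2 fold change 1.99, SE 0.18, adjusted p = 4.3e-07). Its main gene RPL22 had 22733, 29863 and 12212 in TNIP2 Pulldown, against 7656, 7177 and 5086 in TNIP2 Input. Both genes of that pair were higher in all 3 purified libraries than in any extract library, and in the RPL39L and RPL39 pair both were lower.

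RPL26L1 had 1923, 1322 and 1259 normalized counts in TNIP2 Pulldown, against 855, 693 and 1217 in TNIP2 Input (0.72, SE 0.22, adjusted p = 0.011), while RPL26 had 18207, 15645 and 12296 in TNIP2 Pulldown, against 19506, 17516 and 17638 in TNIP2 Input. The call for RPL26L1 ended when TNIP2 Pulldown replicate 1 (adjusted p = 0.063) or TNIP2 Input replicate 2 (adjusted p = 0.064) was left out, and under quantile normalization (0.44, adjusted p = 0.074). RPL7L1 had 3415, 2469 and 2435 in TNIP2 Pulldown, against 1536, 1562 and 1768 in TNIP2 Input (0.76, SE 0.15, adjusted p = 5.5e-04). RPL7 had 20294, 18988 and 11085 in TNIP2 Pulldown, against 18071, 17315 and 17653 in TNIP2 Input, and the change of -0.12 (SE 0.19) did not pass. Under quantile normalization RPL7L1 lost its call (0.25, adjusted p = 0.11) and RPL7 was called lower (-0.93, adjusted p = 2.9e-05). In both of these pairs the paralog was called higher and its main gene was not called, and the difference within each pair was not tested.

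RPL3, at the centre where peptide bonds form, had 41174, 77405 and 44958 normalized counts in TNIP2 Pulldown, against 22258, 22659 and 7901 in TNIP2 Input (log2 fold change 1.72, SE 0.34, adjusted p = 5.5e-04). TNIP2 Input replicate 3 was the low library there, and the call ended under quantile normalization (0.63, adjusted p = 0.15). RPL10 had 19118, 14462 and 12269 in TNIP2 Pulldown, against 20028, 18058 and 19283 in TNIP2 Input, and the groups overlapped. Their paralogs were below the minimum: the muscle gene RPL3L had at most 9 in any library and the testis gene RPL10L had 1 in TNIP2 Input replicate 3 and 0 elsewhere. RPL21, the third symbol below it, had 0, 1 and 0 in TNIP2 Pulldown, against 2, 3 and 5 in TNIP2 Input, and 0, 3 and 0 in Control Pulldown, against 9, 5 and 4 in Control Input. RPL21 is known for many near-identical processed copies, and how reads with several positions were counted is not given in the sources used here, so these values are uncertain. The tables hold 18 rows for numbered RPL pseudogenes, 3 of them at 0 in every library and the highest, RPL23AP53, reaching 515. RPL17 and RPL36A overlap readthrough genes whose rows were at 0 in every library, which leaves the counts of these members uncertain too.

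**Figure D3:**
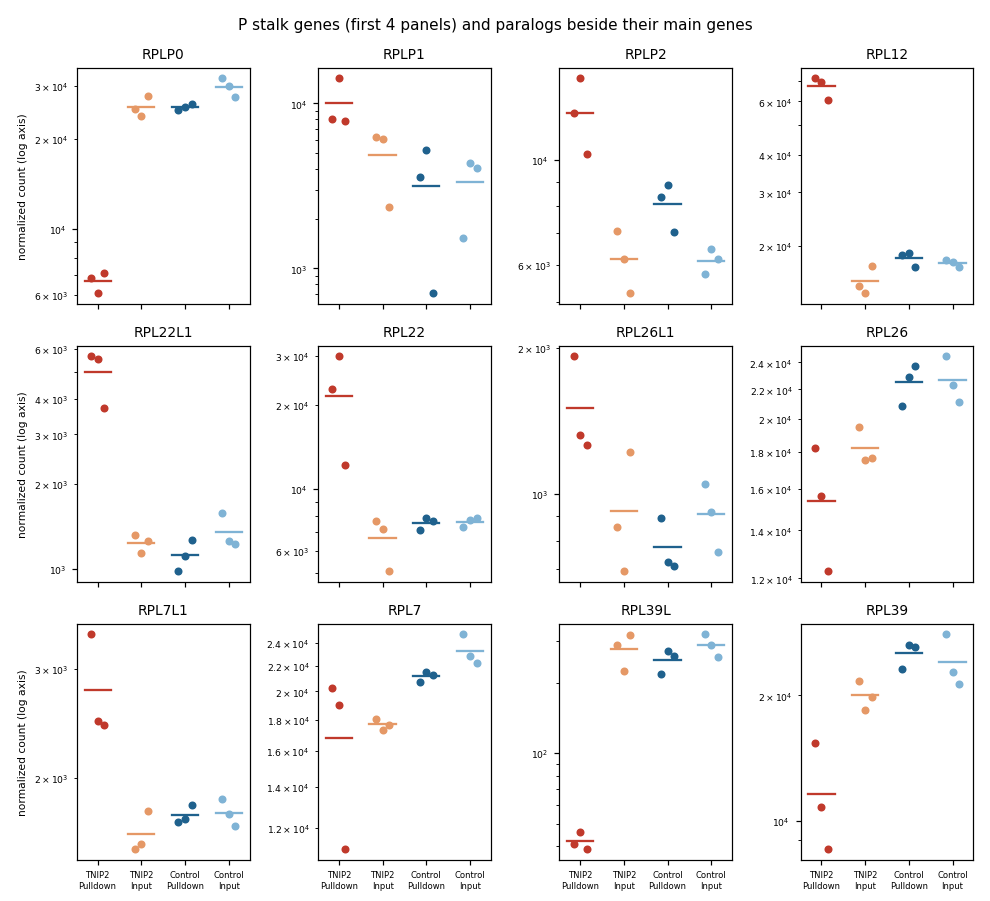
Normalized count (log axis, each panel on its own scale) in the 12 libraries for the 4 P stalk mRNAs and for 4 paralogs, each beside its main gene; points are libraries and bars are means of 3. RPLP0 is below all other libraries in TNIP2 Pulldown while RPL12 is above, and RPL22L1, RPL26L1 and RPL7L1 are above while RPL39L is below.

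Fold changes showed little relation to length or level. Exonic lengths, recovered from the ratio of both deposited tables, had a median of 976 bases for the 27 members that were higher, 701 for the 7 that were lower and 897 for the 15 not called. Across the 49 members the log2 fold change had a Pearson r of 0.04 and a Spearman rho of 0.10 with log2 length, and -0.01 and -0.15 with log2 FPKM in TNIP2 Input. These are descriptions over genes of the same libraries. Long values such as 4764 bases for RPL13 and 5225 for RPL28 take in exons of several isoforms, so FPKM understates the level of such genes.

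**Figure D4:**
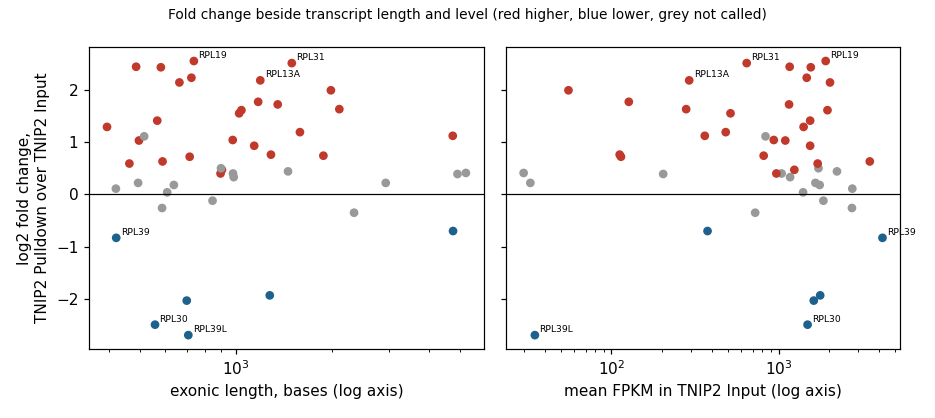
Log2 fold change of TNIP2 Pulldown over TNIP2 Input (y axis) of 48 of the 49 members against recovered exonic length (left, log axis) and mean FPKM in TNIP2 Input (right, log axis), coloured by call. Members that were higher and members that were lower occur over nearly the same range of both measures, and RPL39L, at 34.8 FPKM, is the only lower member at a low level.

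TNIP2 Pulldown against Control Pulldown compares 2 purified fractions and asks what the TNIP2 fragment adds to the tag and resin. It shares the TNIP2 Pulldown libraries with the comparison above and is therefore not separate evidence. Here 27 of 49 members were higher in TNIP2 Pulldown and 9 were lower, beside 30.6% and 28.7% of all genes, with a median log2 fold change of 0.60 against 0.03. At least 2-fold were 17 higher (34.7% of the members) and 7 lower (14.3%), beside 19.8% and 17.2% of all genes. The libraries of 26 and 10 did not overlap, beside 31.5% and 29.5%. Quantile normalization gave 15 higher and 19 lower. The highest was RPL35A, at 43156, 37224 and 25709 normalized counts in TNIP2 Pulldown, against 4648, 5532 and 5778 in Control Pulldown (log2 fold change 2.71, SE 0.19, adjusted p = 4.4e-08). RPL19 (2.46), RPL31 (2.43), RPL23 (2.42), RPL10A (2.27) and RPL22L1 (2.13) followed.

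The lowest was RPL29, at 3302, 3306 and 2660 normalized counts in TNIP2 Pulldown, against 19389, 20439 and 17025 in Control Pulldown (log2 fold change -2.62, SE 0.18, adjusted p = 4.2e-08). RPL39L (-2.54), RPL30 (-2.49), RPLP0 (-1.94) and RPL39 (-1.16) were also lower, and the calls of the genes in this comparison named so far held under all 21 alternatives. RPLP1 was higher here (2.02, SE 0.61, adjusted p = 0.01), but without Control Pulldown replicate 3, its lowest library, the log2 fold change was 1.15 (adjusted p = 0.056), and under quantile normalization 1.4 (adjusted p = 0.068). RPL26 (-0.56, SE 0.16, adjusted p = 0.0073) and RPL10 (-0.41, SE 0.17, adjusted p = 0.0486) were lower, and the call for RPL10 ended under 16 of the 21 alternatives, including leaving out any of the 3 Control Pulldown libraries (0.085 to 0.11). The call for RPL3 (1.06) ended without TNIP2 Pulldown replicate 2 (adjusted p = 0.08) or Control Pulldown replicate 2 (0.0532), and under quantile normalization (0.01, adjusted p = 0.99). RPL41 (0.59) lost its call without any one of TNIP2 Pulldown replicates 1 and 2 or of the 3 Control Pulldown libraries, and under quantile normalization it was called lower (-0.36, adjusted p = 0.035).

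The difference of enrichments sets the TNIP2 fragment's change between Pulldown and Input against that seen with the unfused tag. It was called higher for 25 members and lower for 7, beside 22.6% and 20.2% of all genes. Of the members 38 lay above 0 and 11 below (22.4%), beside 49.2% of all genes below 0. Under quantile normalization the difference changed sign for 19 of the 49 members. In the main fit it was called at both ends of the ranking. It was largest for RPL35A (2.82, SE 0.27, adjusted p = 4.0e-06) and lowest for RPL29 (-2.49, SE 0.26, adjusted p = 6.5e-06). It shares libraries with both comparisons above, so its calls are not independent of theirs.

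Control Pulldown against Control Input shows the large subunit mRNAs carried by the tag alone. No member was called, beside 0.0% of all genes higher and 0.137% lower. At an unadjusted p under 0.05, 2 members were higher and 1 was lower, beside 0.752% and 1.59% of all genes. The median log2 fold change was -0.14 and the SD over members 0.23, against 1.25 for TNIP2 Pulldown over TNIP2 Input. Over all genes tested the median was -0.01 and the SD 0.31, against 1.11 for TNIP2 Pulldown over TNIP2 Input, so the wider spread was not particular to the members. RPL28 had 2016, 2117 and 1695 normalized counts in Control Pulldown, against 943, 1434 and 1753 in Control Input (0.54, SE 0.41), and RPL29 had a log2 fold change of 0.46. RPL34 had 3755, 4875 and 5432 in Control Pulldown, against 7374, 6860 and 6312 in Control Input (-0.56, SE 0.19), and RPL37 had -0.40. The libraries did not overlap for 17 members lower and 4 higher in Control Pulldown, beside 7.15% and 5.83% of all genes. Of the 32 small subunit genes, 15 were lower (46.9%) and 1 was higher with no overlap. The median was -0.16 for the small subunit genes and -0.14 for genes at least as abundant as the median member. Control Pulldown was also the shallowest group, with 3579973 to 6411744 recovered reads.

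TNIP2 Input against Control Input asks whether the extracts differed before purification. No member was called, beside 0.00684% of all genes higher and 0.0% lower, and at an unadjusted p under 0.05 there were 0 higher and 0 lower, beside 0.383% and 0.328% of all genes. Of the 49 log2 fold changes, 46 were below 0 (93.9%), beside 52.7% of all genes, with a median of -0.20 against -0.01 for all genes. The libraries of 18 members were lower in TNIP2 Input with no overlap and those of 0 were higher, beside 5.32% and 3.62% of all genes. RPL13A (-0.45, SE 0.23) and RPL7 (-0.40, SE 0.19) were the lowest, and RPLP1 (0.56, SE 0.61) and RPL28 (0.15, SE 0.41) the highest, none past the test. Under quantile normalization the median was -0.06. The small subunit genes had the same median of -0.20, and genes at least as abundant as the median member had -0.23.

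**Figure D5:**
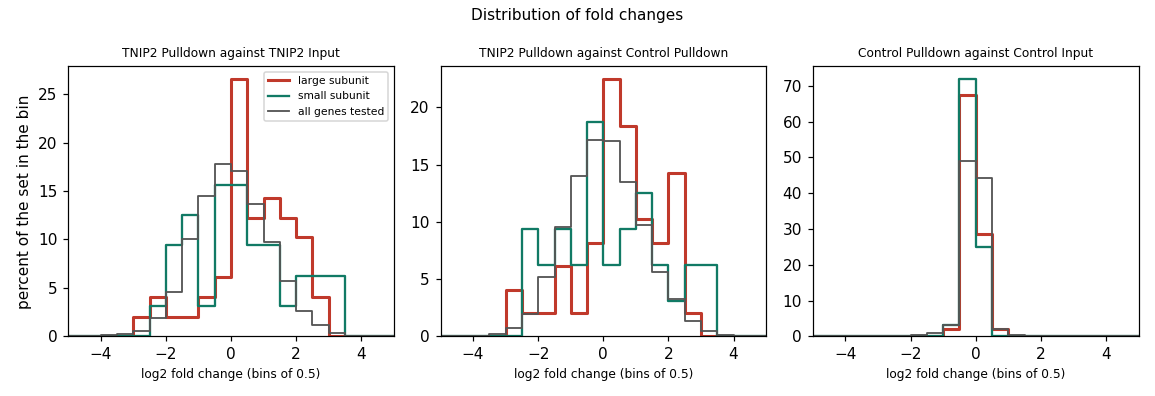
Share of each gene set (y axis, percent, a separate scale in each panel) in bins of 0.5 log2 fold change (x axis) for 49 large subunit genes, 32 small subunit genes and all 14627 genes tested. In TNIP2 Pulldown against TNIP2 Input the large subunit genes run from -2.69 to 2.55 with a median of 0.63 (-0.14 under quantile normalization), and in Control Pulldown against Control Input they run from -0.56 to 0.54.

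Small subunit mRNAs showed a similar split with less of a shift to the higher side: 13 of 32 were higher and 10 lower in TNIP2 Pulldown than in TNIP2 Input, with a median of 0.13 and the highest value, 3.42, for RPS24. The 32 small subunit genes made up 6.84%, 7.4% and 4.92% of normalized counts in TNIP2 Pulldown, against 4.02%, 3.78% and 3.55% in TNIP2 Input. A larger summed share was therefore not particular to the large subunit. The difference between the subunits was not tested. RPL36AL, a large subunit gene whose symbol falls outside the form used here, had 567, 523 and 398 normalized counts in TNIP2 Pulldown, against 1664, 1488 and 1451 in TNIP2 Input (-1.64, SE 0.15, adjusted p = 4.9e-07). RPL36A, of which RPL36AL is a copy, had 0.22 (SE 0.19, adjusted p = 0.33).

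Lists of related genes held calls in both directions, at shares near those of all genes. Of 21 tested genes outside the RPL and RPS sets that are known for a TOP tract, 6 were higher and 7 lower in TNIP2 Pulldown than in TNIP2 Input. Their median was 0.19. EEF1A1, the factor that brings tRNA to the ribosome, fell by 1.76 on the log2 scale (-1.76, SE 0.18), and NACA, a chaperone of the nascent chain, had 1.68 (SE 0.19). LARP1, the TOP mRNA regulator, had 0.74 (SE 0.33, adjusted p = 0.066), whereas LARP4 (-1.31, SE 0.15) and LARP1B (-0.88, SE 0.16) were lower and LARP4B (0.87, SE 0.18) was higher. Of 52 tested large subunit assembly factors 19 were higher and 14 lower, with a median of -0.03. Among those lower were EIF6 (-2.03, SE 0.23), which keeps the subunits apart, and RSL24D1 (-1.93, SE 0.15), which holds the place of RPL24 in the pre-ribosome. Of 9 chaperones and importers of ribosomal proteins 3 were higher and 2 lower. NAP1L1, NACA, BTF3 and IPO7 are in both this list and that of the TOP genes. The counts of these lists are near the 29.8% higher and 28.3% lower over all genes, so the division was not particular to them.

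Several large subunit genes carry small nucleolar RNAs (snoRNAs) in their introns, which are processed from the same primary transcript. Of 27 such snoRNAs tested, 2 were higher and 6 lower in TNIP2 Pulldown than in TNIP2 Input (median -0.39), beside 29.8% and 28.3% of all genes. Against Control Pulldown the counts were the other way round, with 6 higher and 2 lower (median 0.01), beside 30.6% and 28.7%. The difference of enrichments was called higher for 1 and lower for 2, beside 22.6% and 20.2%. In TNIP2 Pulldown against TNIP2 Input, SNORD58A (1.25, adjusted p = 0.0037) and SNORD58C (1.22, adjusted p = 0.0098) were higher beside their host RPL17 (1.77). SNORA65 was lower (-1.38, adjusted p = 0.014) within RPL12 (2.14), and SNORD4A was lower (-3.15, adjusted p = 1.0e-05) within RPL23A (0.40). SNORA69 was lower (-2.73, adjusted p = 3.9e-05) within RPL39 (-0.83). The means of these snoRNAs were 2.67 to 45.0 normalized counts in TNIP2 Pulldown and 16.0 to 42.0 in TNIP2 Input, far under those of their hosts.

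Depth by recovered reads was 10303466 to 29435195 in TNIP2 Pulldown, 8882351 to 16730392 in TNIP2 Input and 13744911 to 20794467 in Control Input. TNIP2 Pulldown libraries also varied most among themselves: the median log2 range over a member's replicates was 0.72 there, 0.23 in TNIP2 Input, and 0.18 in each control group. The defining HEK293 genes PAX2, LHX1, HOXA9, HOXD10, NEFL and VIM summed to 9903 to 11456 normalized counts in TNIP2 Pulldown, 4725 to 5569 in TNIP2 Input, 4627 to 5550 in Control Pulldown and 5438 to 5719 in Control Input. The 8 blood markers summed to 38 to 120 in TNIP2 Pulldown, 32 to 51 in TNIP2 Input, 23 to 60 in Control Pulldown and 39 to 43 in Control Input, with CD3E, MS4A1 and HBB at 0 in all 12 libraries. The 8 markers of fibroblasts and endothelium summed to 128 to 146 in TNIP2 Pulldown, 87 to 123 in TNIP2 Input, 59 to 130 in Control Pulldown and 114 to 141 in Control Input.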

How the data were processed

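RNA sequencing was deposited for 12 libraries in 4 groups of 3. The authors deposited normalized counts, treated here as a score because they are whole numbers already scaled between libraries, and FPKM values per gene. Per the submitters' processing notes, TopHat2 2.0.14, DESeq2 1.6.3 and build hg19 were used. For the read counter, the strand setting and the gene annotation, the sources used here give nothing. The table's columns carry letters, of which the one for the TNIP2 fragment was assigned by elimination. The labels do not state whether replicates are separate transfections, so the p-values describe how these libraries spread, and that spread could be technical.

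Genes with a normalized count of at least 10 in at least 3 libraries were tested on log2(normalized count + 1), a scale that understates the change of low genes, with limma's lmFit and trended eBayes (limma 3.58.1, R 4.3.3). The fit held all 12 libraries, a mean per group and 8 residual degrees of freedom, and two-sided p-values were adjusted over the 14627 genes by Benjamini-Hochberg. On simulated data for TNIP2 Pulldown against TNIP2 Input over 14627 genes, 17 of 50 genes changed 1.5-fold, 44 of 50 changed 2-fold and 50 of 50 changed 4-fold were called, with 4 of 14427 unchanged genes. The simulation drew all groups around the Control Input means with the same dispersion and changed few genes. In the data the median replicate range was 0.72 in TNIP2 Pulldown and 0.18 in Control Input, and 58.1% of genes were called. These rates therefore do not carry over to the data. Whole reads and exonic lengths were recovered from steps in the deposited FPKM, with 100.0% of the low values checked whole within 0.1 reads. Alternatives were a pseudocount of 5, no filter, a minimum of 100, FPKM, quantile normalization, median centring, fits of the groups compared, a replicate block and leaving out libraries. Not all of these can move a fold change. The FPKM share the library scaling of the normalized counts and differ by a constant for each gene. Leaving out a library outside the groups compared alters only the estimate of the spread. The filters alter that estimate and the set of genes over which p-values are adjusted.

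Same-numbered TNIP2 Pulldown and TNIP2 Input libraries deviated together (correlations of 0.37, 0.46 and 0.50), which comes from the data and not from the labels. Their numbers were used as pairs only in the replicate block alternatives. The main fit, with its SEs and adjusted p-values, used no pairing. Other groups' numbers did not pair (-0.20 to 0.15). Named genes are the 6 highest and 6 lowest called log2 fold changes of the members in each comparison (2 and 2 where none is called) and the members of the role groups; genes outside the ribosomal protein set and ratios of 2 genes were picked as examples after their values were seen. The members and lists were chosen with earlier results of these data known. A few genes, 1 of them a member, are counted in the totals and are not reported here by name.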

Additional observations from a re-analysis of the deposited data

Results flagged for a closer look

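The change between Pulldown and Input differed between the TNIP2 fragment and the tag alone, by limma's test of the difference of enrichments, for 11 members with named values. The difference, on the log2 scale, was 2.82 for RPL35A, 2.77 for RPL31, 2.72 for RPL19, 2.69 for RPL23, 2.53 for RPL10A and 2.46 for RPL13A. It was -2.49 for RPL29, -2.47 for RPL39L, -2.28 for RPL30, -1.71 for RPLP0 and -0.9 for RPL39, whose call alone among the 11 ended under an alternative (adjusted p = 0.06 with no filter). Over all genes 22.6% were higher and 20.2% lower by this test. With 3 libraries in a group, no search for outlying libraries was made.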

How the results depend on the processing

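Quantile normalization, which forces all libraries to one distribution, was the alternative that moved the counts by over 1.5 times. It gave 16 members higher, 18 lower and a median log2 fold change of -0.14 in TNIP2 Pulldown against TNIP2 Input, 15, 19 and -0.21 against Control Pulldown, and 14, 13 and -0.13 for the difference of enrichments. The median was -0.03 in Control Pulldown against Control Input and -0.06 in TNIP2 Input against Control Input. The sign changed for 17, 17 and 19 of the 49 members in these comparisons, and 6, 7 and 7 of them had been called. Reversals are given here for genes of the named roles that had a call in the main fit or under quantile normalization. RPL23A changed sign in these comparisons without a call, and so did RPL41 in the difference of enrichments. Quantile normalization reversed RPL11 (-0.56), RPL35 (-0.14), RPL4 (-0.57) and RPL41 (-0.42) in TNIP2 Pulldown against TNIP2 Input. It reversed RPL4 (-1.37), RPL41 (-0.36) and RPLP2 (-0.04) against Control Pulldown, and RPL11 (-0.68), RPL35 (-0.08), RPL4 (-1.21), RPL7 (-0.90) and RPLP2 (-0.04) in the difference. The cause was not tested. Of the 27 and 7 members called in TNIP2 Pulldown against TNIP2 Input, 16 and 7 were called in the same direction under all 22 alternatives. A voom fit with TMM scaling on recovered reads had been planned and is not reported, because the deposited tables hold no raw counts.

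Leaving out 1 library gave 23 to 34 members higher and 7 to 9 lower (median 0.47 to 0.83) in TNIP2 Pulldown against TNIP2 Input. It gave 23 to 34 and 8 to 10 (0.43 to 0.77) against Control Pulldown, and 20 to 33 and 7 (0.62 to 0.91) for the difference. The 0 calls of both remaining comparisons held, with medians of -0.17 to -0.10 in Control Pulldown against Control Input and -0.23 to -0.17 in TNIP2 Input against Control Input. The main fit shares its estimate of the spread over all groups, though TNIP2 Pulldown varied most. Fitting only the groups compared kept 22 of the 27 higher calls and all 7 lower calls in TNIP2 Pulldown against TNIP2 Input. Against Control Pulldown such a fit kept 24 of 27 and 8 of 9. The replicate block gave 28 higher and 7 lower over all libraries in TNIP2 Pulldown against TNIP2 Input. Within the 6 TNIP2 libraries, a fit added after seeing the data, it gave 25 and 7: RPLP1 gained its call, and RPL41, RPL9 and RPL18 lost theirs. RPL39L, at 39 to 46 normalized counts in TNIP2 Pulldown, is the member most limited by depth.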
